A study of Rattus norvegicus with 9 samples.

Results

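The cluster of miR-322, miR-503 and miR-351 is a group of miRNA genes on the X chromosome whose hairpins lie side by side, and 5 of its mature products were followed here in the serum of rats given rotenone. They are both arms of miR-322, both arms of miR-503 and the 5p arm of miR-351. They were found by name among the 567 mature miRNAs of the count table, and all 5 are listed there. The set was chosen by its place in the genome and by earlier results on these same counts, in which miR-351-5p stood lower in early rotenone serum than in controls and miR-322-3p had no count in late rotenone serum. The values of EPD against Control and of LPD against Control are therefore given as a description of these 5 miRNAs, without a test of them.

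The samples were 9 sera of adult male wild-type Wistar rats in 3 groups, Control, EPD and LPD, with 3 libraries each. EPD animals had received the mitochondrial complex I inhibitor rotenone into the peritoneum daily for 10 days, at 2.0 mg per kg each day, as a model of early Parkinson's disease. LPD animals had received the same daily dose for more than 40 days and had reached a terminal stage. Controls are named as such in the titles, but the treatment label reads alike for all 9 samples, what the controls were given is not stated, and no source used here says whether a library is 1 animal or a pool. Rotenone given this way acts on the whole body, and serum collects miRNAs from many tissues, so a lower level from fewer releasing cells and one from less release per cell cannot be told apart.

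A miRNA gene is transcribed as a hairpin, from which a 5p and a 3p strand are cut, and the strand that is kept by an Argonaute protein represses mRNAs that pair with its seed, bases 2 to 8. miR-322-5p, the rodent counterpart of human miR-424-5p, and miR-503-5p belong to the miR-15/16 group of seeds, whose known targets include cyclins and other drivers of the step from G1 into S phase. In mouse muscle precursor cells both were found to repress the cell-cycle phosphatase Cdc25a as the cells leave the cycle and differentiate. miR-351-5p carries the seed of the miR-125 family.

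The mature strands are shown first because arms, seeds and neighbours order the results that follow. They are RefSeq sequences tied to the assembly GRCr8, written 5′ to 3′ with the seed in capitals.
miR-322-5p: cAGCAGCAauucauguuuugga
miR-503-5p: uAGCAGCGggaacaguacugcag
miR-16-5p: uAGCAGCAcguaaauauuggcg
miR-351-5p: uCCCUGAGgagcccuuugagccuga
miR-125b-5p: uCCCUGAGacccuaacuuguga
miR-322-3p: aAACAUGAagcgcugcaaca
miR-503-3p: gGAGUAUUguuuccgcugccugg
miR-322-5p has the seed AGCAGCA, which 4 other mature miRNAs of the 693 in the RefSeq table share: miR-15b-5p, miR-16-5p, miR-195-5p and miR-497-5p. miR-15a-5p, named below as a further seed relative from general knowledge, has no entry there. miR-503-5p has the same bases 2 to 7, but its base 8 differs from that of miR-322-5p (A8G, counted from 1 at the 5′ end), and no other miRNA in the table has its full seed. Beyond the seed they diverge: aligned from the 5′ end without gaps, miR-322-5p and miR-503-5p were identical at 11 of 22 bases, and miR-322-5p and miR-16-5p at 12 of 22. miR-351-5p shares its seed CCCUGAG with miR-125a-5p and miR-125b-5p, and matched miR-125b-5p at 10 of 22 bases. The seeds of miR-322-3p and miR-503-3p were found in no other miRNA of the table.

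The hairpins show which strands come from the same precursor, with the 5p and then the 3p strand in capitals.
Mir322: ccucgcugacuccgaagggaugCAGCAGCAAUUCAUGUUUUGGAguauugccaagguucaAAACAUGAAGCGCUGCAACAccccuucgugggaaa
Mir503: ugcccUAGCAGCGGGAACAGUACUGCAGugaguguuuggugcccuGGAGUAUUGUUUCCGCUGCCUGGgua
Mir351: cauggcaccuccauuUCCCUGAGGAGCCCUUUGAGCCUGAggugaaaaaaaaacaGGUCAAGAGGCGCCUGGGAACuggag
On GRCr8, all 3 lie on the minus strand of the X chromosome, Mir322 at chrX:137726147-137726241, Mir503 at chrX:137725856-137725926 and Mir351 at chrX:137725116-137725196. They span 1126 bases, with 220 bases between Mir322 and Mir503 and 659 between Mir503 and Mir351. In the direction of transcription Mir542 follows 2861 bases after Mir351, and Mir450b-1 and Mir450a1 come next. The count files give no coordinates, and the build in the submitters' processing notes was mRatBN7.2, so positions here serve only to place the hairpins relative to each other.

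Total counts per library were 1108167 to 1539557 in Control, 1136537 to 1668807 in EPD and 132609 to 305019 in LPD. Control 2 stood apart: the hepatocyte miRNA miR-122-5p had 661789 CPM there (counts scaled to a common library size with TMM factors), against 22271 and 45681 CPM in the other controls, and the cluster was low in this library as well. In LPD the counts may rest on few molecules. From the number of miRNAs with no count, an estimated 8315, 4279 and 10755 molecules stood behind LPD 1, 2 and 3, or 36.7, 49.1 and 12.3 counts per molecule. This holds only if their sera had the mean profile of the other 6 libraries, and the estimate was not made for Control and EPD. Each miRNA is captured with its own efficiency, so levels of different miRNAs are compared here with that limit.

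In EPD serum 4 of the 5 members stood at 0.182 to 0.347 times their Control means, and miR-322-5p, the most abundant, stood at 0.853 times its mean. Across all miRNAs, edgeR's quasi-likelihood test called none of 294 in EPD against Control (0%) and thus no member, with 11 at an unadjusted p under 0.05. DESeq2 called 1, miR-199a-3p, which is no member (log2 fold change -1.75, adjusted p = 0.00013). Over the 294, 156 had a log2 fold change below 0 and the median was -0.05, and in 24 (8.16%) every EPD library lay below every control, as did 1 of the 5 members, miR-351-5p. Since these contrasts led to the choice of the members, nothing is read from that count.

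**Figure D1:**
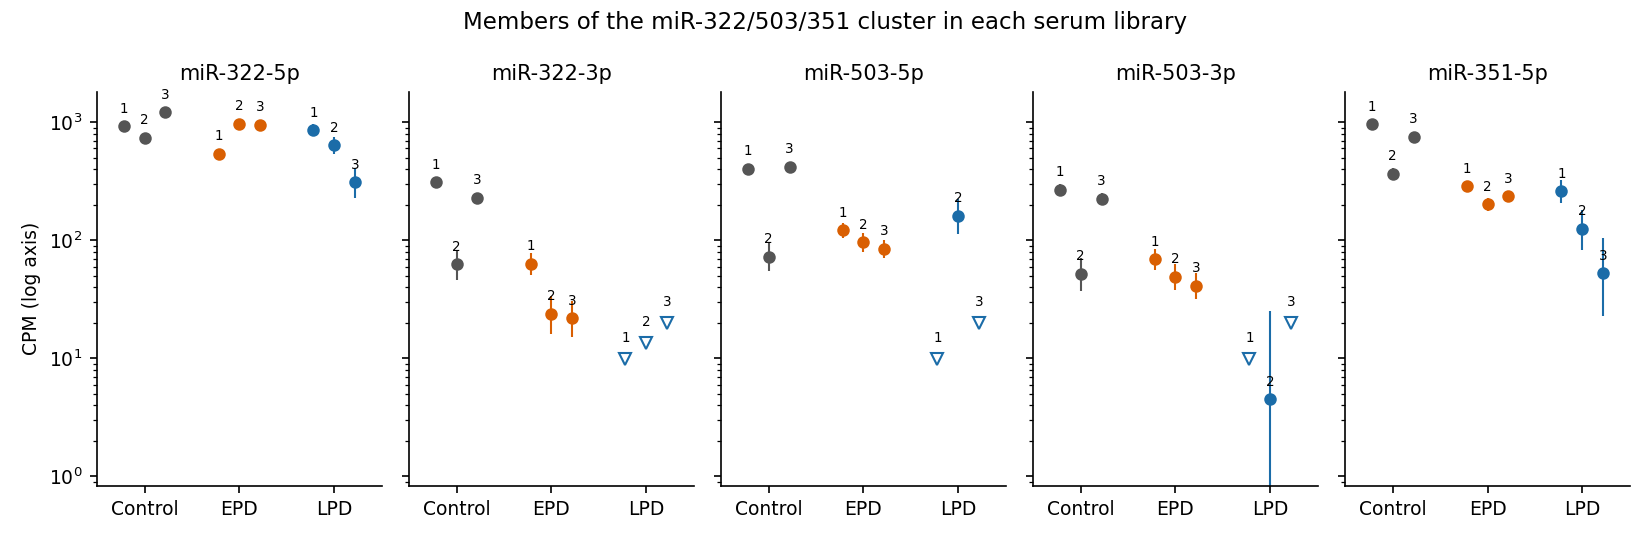
CPM of the 5 members in each library (log axis), with the 3 Control, 3 EPD and 3 LPD libraries numbered as in the labels. Bars are exact Poisson intervals at 95% (counting error only) and open triangles mark libraries with no count, drawn at the level of 3 counts for display and not as a limit. miR-322-5p overlaps between EPD and Control, miR-351-5p does not, and miR-322-3p has no count in LPD.

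miR-322-5p is the strand of the miR-322 hairpin that carries the miR-15/16 seed. It had 543, 972 and 953 CPM in the EPD libraries, against 930, 740 and 1221 CPM in the Control libraries. The groups overlapped, with EPD 1 the lowest of the 6 and Control 3 the highest. The means were 823 ± 242 CPM in EPD and 964 ± 242 CPM in Control (SD, n = 3 each), a log2 fold change of -0.23 with a standard error (SE) of 0.45. Its sign was not settled, since it stood at 0.02 without Control 3 and at 0.07 without EPD 1.

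miR-322-3p, cut from the other side of the same hairpin, differed most among the members. It had 63.5, 23.9 and 22.0 CPM in EPD (93, 31 and 35 counts), against 309, 62.6 and 230 CPM in Control (380, 49 and 399 counts). EPD 1 and Control 2 were nearly level and are the reason that the groups overlapped, while Control 1 and Control 3 lay far above all EPD libraries. EPD averaged 36.4 ± 23.5 CPM and Control 201 ± 126 CPM (SD, n = 3 each), a log2 fold change of -2.46 (SE 0.97). Of the 294 fold changes in EPD against Control this was the 4th lowest.

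miR-503-5p, which shares bases 2 to 7 with miR-322-5p, had 122, 96.2 and 84.7 CPM in EPD, against 403, 72.8 and 421 CPM in Control. Control 2 was the lowest of the 6 libraries, and the other controls stood above all EPD libraries. EPD averaged 101 ± 18.8 CPM and Control 299 ± 196 CPM (SD, n = 3 each), a log2 fold change of -1.57 (SE 1.498). The SE takes in the LPD libraries, where this miRNA was counted in 1 library of 3, and was 0.60 in a fit of EPD and Control alone (log2 fold change -1.48).

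miR-503-3p, the opposite strand of that hairpin, showed the same pattern at a lower level. It had 69.0, 49.3 and 41.4 CPM in EPD, against 269, 52.3 and 226 CPM in Control. Again Control 2 lay among the EPD libraries and the other controls above them. The means were 53.2 ± 14.2 CPM in EPD and 182 ± 115 CPM in Control (SD, n = 3 each), and the log2 fold change was -1.78 (SE 0.92).

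miR-351-5p, the miR-125-seed member, had 286, 202 and 235 CPM in EPD, against 960, 366 and 757 CPM in Control. The groups did not overlap, and Control 2 was the lowest control here too. EPD averaged 241 ± 42.5 CPM and Control 694 ± 302 CPM (SD, n = 3 each), a log2 fold change of -1.53 (SE 0.62). On the other strand of its hairpin, miR-351-3p had 8, 8 and 2 counts in EPD, against 73, 10 and 67 counts in Control.

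**Figure D2:**
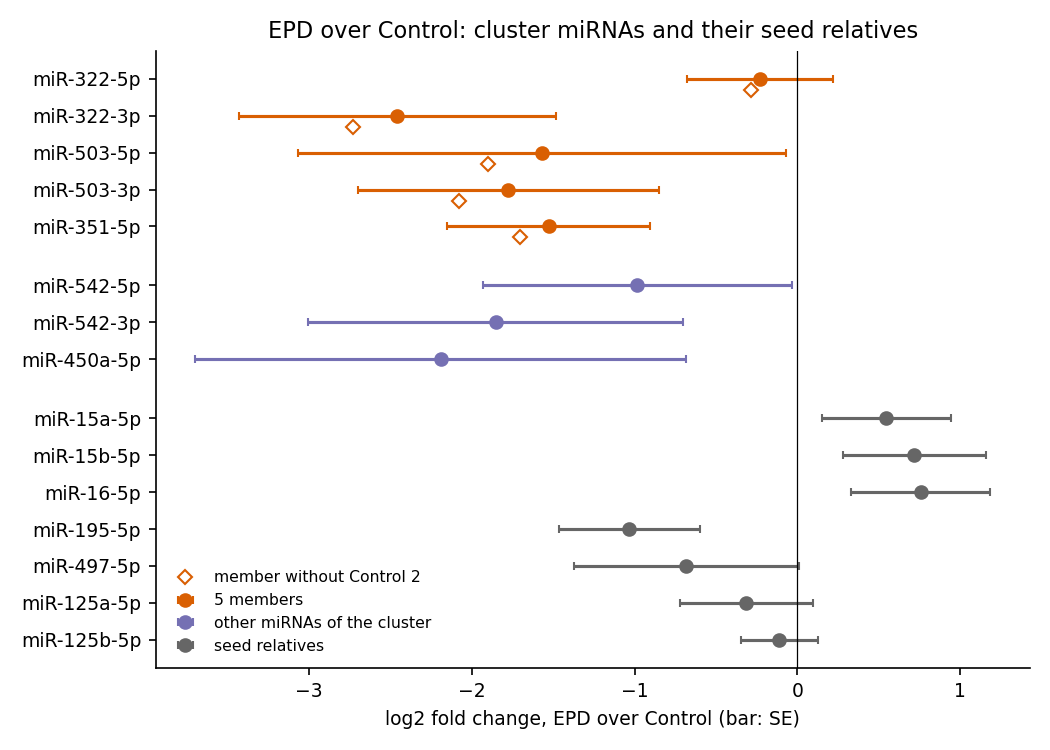
Log2 fold changes of EPD over Control with their SE for the 5 members, the 3 tested neighbours in the cluster and the 7 miRNAs that share a seed with a member, with open diamonds for the members without Control 2. Of the members, miR-322-5p stands near 0 at -0.23 and the other 4 lie between -2.46 and -1.53, while miR-15a-5p, miR-15b-5p and miR-16-5p lie above 0.

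Single libraries weigh on these values, Control 2 on all the Control means. Without it the Control mean of miR-322-3p was 270 CPM in place of 201, that of miR-503-5p 412 in place of 299, that of miR-503-3p 247 in place of 182 and that of miR-351-5p 859 in place of 694. In the fit of all groups without this library the log2 fold changes were -2.73, -1.90, -2.08 and -1.70, and without Control 1 they were -1.98, -1.26, -1.36 and -1.19. miR-322-3p moved furthest without EPD 1, to -3.04. Over all single libraries left out the ranges were -3.04 to -1.98 for miR-322-3p, -1.90 to -1.21 for miR-503-5p, -2.08 to -1.36 for miR-503-3p and -1.70 to -1.19 for miR-351-5p. When EPD and Control alone were fitted and Control 2 was left out, a choice made after its values were seen, 21 of 338 miRNAs passed (6.21%), 18 of them lower. Among the 21 were miR-322-3p, miR-503-5p, miR-503-3p, miR-351-5p and 4 further miRNAs of the cluster, miR-542-3p, miR-542-5p, miR-351-3p and miR-450a-5p. Of the 18, miR-351-3p, miR-450a-5p, miR-411-5p, miR-431 and miR-369-5p had at most 10 counts in any EPD library. They passed the filter on low counts only through Control 1 and Control 3, which fixed their direction, so nothing is read from their calls. With any other EPD or Control library left out of that fit 0 passed, so this count rests on 1 library and, for the members, on the contrast that led to their choice.

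By level, the order in the 6 EPD and Control libraries was miR-322-5p, miR-351-5p, miR-503-5p, and then the 3p strands. miR-322-5p exceeded miR-351-5p in 5 of the 6 libraries, the exception being Control 1, and the ranges of both overlapped in Control, so this pair is not separated there. miR-351-5p exceeded miR-503-5p, and miR-503-5p exceeded both 3p strands, in all 6 libraries. miR-322-3p exceeded miR-503-3p in 0 of 3 EPD libraries and in 3 of 3 Control libraries, from which nothing is read, as for their ratio below. By mean CPM over these 6 libraries the members ranked 79th (miR-322-5p), 103rd (miR-351-5p), 130th (miR-503-5p), 155th (miR-322-3p) and 156th (miR-503-3p) of the 567.

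The 2 strands of miR-322 did not keep one ratio, whereas those of miR-503 nearly did. The log2 ratio of miR-322-5p to miR-322-3p was 3.09, 5.32 and 5.42 in EPD, against 1.59, 3.55 and 2.41 in Control, with means of 4.61 ± 1.32 and 2.51 ± 0.99 (SD, n = 3 each). EPD 1 lay below Control 2, so the groups overlapped. For miR-503 the log2 ratio of 5p to 3p was 0.81, 0.96 and 1.03 in EPD, against 0.58, 0.47 and 0.89 in Control, a mean difference of 0.28. The log2 ratio of miR-322-3p to miR-503-3p was -0.12, -1.03 and -0.91 in EPD, against 0.20, 0.25 and 0.03 in Control. This ratio did not overlap between the groups, although EPD 1 (93 against 101 counts) and Control 3 (399 against 392 counts) lay close to even. Unlike those on the miR-322 strands, the alternative runs on this ratio and on the miR-503 ratio were not planned beforehand. The members were chosen on these contrasts and no share over other pairs was computed, so nothing is read from the lack of overlap.

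**Figure D3:**
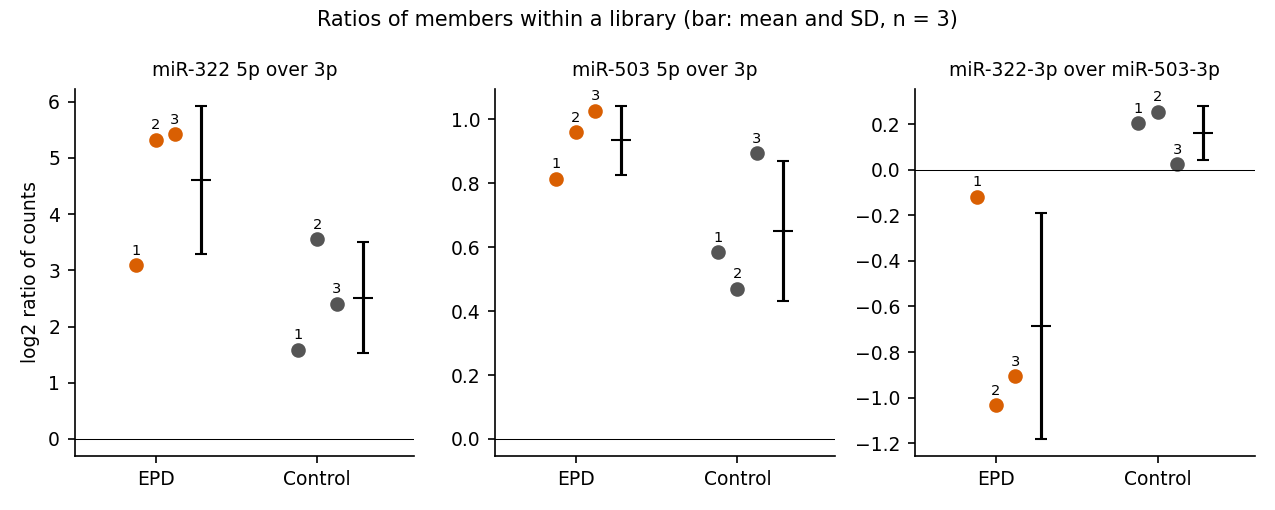
Log2 ratios of counts within a library for the strands of miR-322, the strands of miR-503 and the 2 3p strands, in EPD and Control, with points numbered by library and bars for the mean and SD (n = 3). The miR-322 ratio runs from 1.59 to 5.42, the miR-503 ratio only from 0.47 to 1.03.

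Set side by side over the 6 EPD and Control libraries, with each miRNA centred on its own mean log2 CPM, the closest pair of members was miR-503-5p with miR-503-3p, which differed by a root mean square of 0.20. miR-351-5p lay 0.37 from miR-503-3p and 0.47 from miR-503-5p. The most distant of the 10 pairs was miR-322-5p with miR-322-3p, at 1.42, although they come from the same hairpin. These distances describe 6 libraries that share their scaling factors, and part of each reflects how widely a miRNA varied: the SD of log2 CPM over the 6 was 0.40 for miR-322-5p and 1.59 for miR-322-3p.

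**Figure D4:**
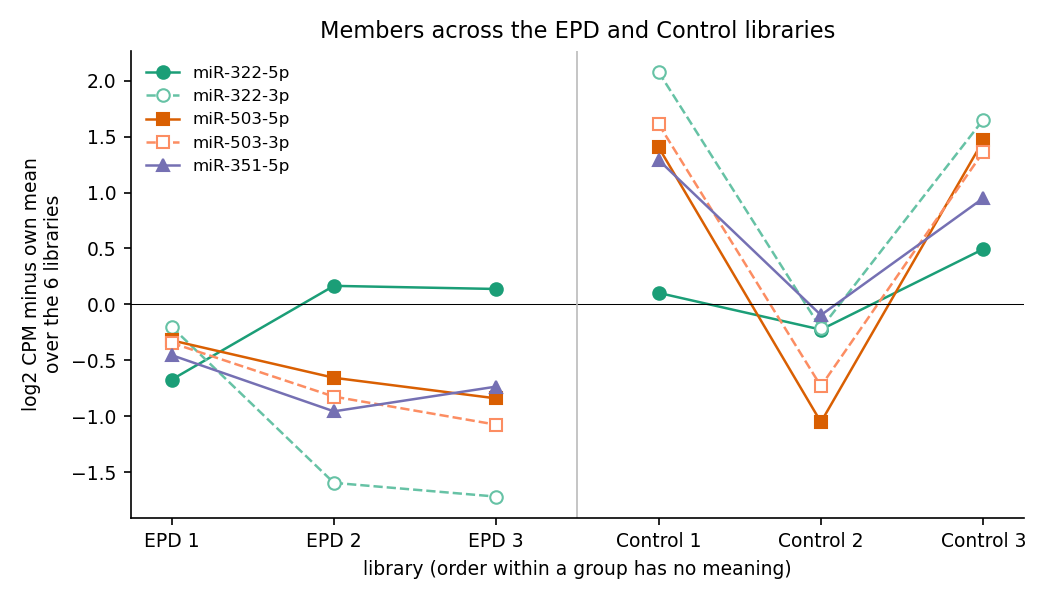
Log2 CPM of each member minus its own mean over the 6 libraries, for EPD and Control, with filled symbols and solid lines for 5p strands and open symbols and dashed lines for 3p strands. All members but miR-322-5p are high in Control 1 and Control 3 and lower in Control 2 and EPD, and the 2 miR-503 strands run together. In Control 2 miR-351-5p is near its own mean (-0.10) and above all its EPD values, and miR-322-3p (-0.21) is level with EPD 1 (-0.20).

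Among 242 other tested miRNAs with a mean of at least 20 CPM, the nearest to miR-351-5p by the same distance were miR-199a-3p, a fibroblast and platelet miRNA (0.28), its cluster neighbour miR-542-3p (0.31) and miR-181b-5p (0.36), against a median of 0.93 over the 242. Nearest to miR-322-3p were miR-455-5p (0.44), miR-125b-2-3p (0.57) and miR-204-5p (0.60), against a median of 1.49. Nearest to miR-322-5p were the endothelial miR-126a-5p (0.20), miR-27a-5p (0.22) and miR-10b-3p (0.23), against a median of 0.61. Both strands of miR-503 had miR-149-5p (0.31 for 3p, 0.38 for 5p) and miR-127-3p of the imprinted Dlk1-Dio3 cluster (0.43 and 0.41) as their nearest, followed by miR-455-5p (0.50) for 3p and miR-140-5p (0.45) for 5p. miR-455-5p, the nearest to miR-322-3p, had 65.6, 50.8 and 17.6 CPM in EPD, against 313, 62.6 and 234 CPM in Control, and thus shared its low Control 2.

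Not all of the remaining strands of the cluster were tested. Of 7 further strands 3 passed the filter on low counts, all with a log2 fold change below 0, and 0 were called. miR-542-3p had 91.5, 81.6 and 89.7 CPM in EPD, against 325, 200 and 426 CPM in Control (log2 fold change -1.85, SE 1.15). Its groups did not overlap, unlike those of miR-542-5p, which had 92.2, 97.8 and 149 CPM in EPD, against 288, 123 and 259 CPM in Control (-0.98, SE 0.95). miR-450a-5p was sparse, with 3, 3 and 9 counts in EPD, against 23, 2 and 44 counts in Control (-2.19, SE 1.51). Its 37 counts in LPD 1 helped it past the filter, which took in all 9 libraries, so its direction adds little. miR-351-3p, with 73, 10 and 67 counts in Control, did not pass. The strands of miR-450b and miR-450a-3p had at most 20 counts in any library and were not tested.

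miRNAs that share a seed with a member but come from other loci did not share one direction. Of the 5 relatives of miR-322-5p and miR-503-5p, 2 had a log2 fold change below 0 and 0 were called (median 0.55). miR-16-5p, abundant in red cells, had 351448, 152934 and 144524 CPM in EPD, against 148464, 76866 and 158483 CPM in Control (log2 fold change 0.76, SE 0.43). EPD 1 stood far above the rest, and the other EPD libraries lay within the Control range. Without EPD 1 the log2 fold change of miR-16-5p was 0.29, and that of miR-15b-5p 0.22 in place of 0.72 (SE 0.44). EPD 1 was also the library richest in red cell miRNAs among these 6, and the part of red cells in these values was not tested. miR-15a-5p had 0.55 (SE 0.40), and 0.47 without EPD 1. By contrast, miR-195-5p had 367 ± 59.5 CPM in EPD and 751 ± 128 CPM in Control (-1.03, SE 0.43), without overlap, and its cluster partner miR-497-5p had -0.68 (SE 0.69), or -0.06 without Control 2. miR-16-5p alone exceeded miR-322-5p by far in every library, so the members make up a small part of the serum miRNAs with this seed. The relatives of miR-351-5p, miR-125a-5p and miR-125b-5p, had -0.31 (SE 0.41) and -0.11 (SE 0.24).

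Together the 5 members took 0.0950, 0.153 and 0.133% of all counts in EPD, against 0.318, 0.0866 and 0.321% in Control. The widest Wilson interval at 95% among these ran from 0.308 to 0.329%, for Control 1, and covers counting error only. Control 2 held the smallest share of the 6, but miR-122-5p alone took 518364 of its 1171056 counts, which lowers every other share. After scaling, EPD 1 was the lowest of the 6 at 1083 CPM, and Control 2 had 1295 CPM. In scaled counts the sum was 1254 ± 148 CPM in EPD and 2340 ± 905 CPM in Control (SD, n = 3 each). miR-322-5p made up 50.1, 72.4 and 71.3% of the 5 members' counts in EPD, against 32.4, 57.2 and 42.8% in Control.

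Markers of tissues that release miRNAs into serum also varied between these libraries. The 5 listed miRNAs of vessel wall and fibroblasts summed to 28947 to 38307 CPM in EPD, against 61415 to 84113 CPM in Control. In 3 of the 5 every EPD library lay below every control, as in 24 of the 294 tested (8.16%). miR-145-5p of this list had 1794 to 2017 CPM in EPD and 1235 to 5977 CPM in Control. Its Control mean without Control 2 was 1323 CPM, below all EPD libraries. The 4 muscle miRNAs summed to 322 to 4950 CPM in EPD, against 1422 to 7704 CPM in Control, and the 4 hepatocyte miRNAs to 21031 to 56379 CPM in EPD, against 29504 to 696576 CPM in Control. Red cell miRNAs (3 listed) summed to 42855, 10244 and 8548 CPM in EPD, against 10125, 7596 and 10470 CPM in Control, so that EPD 1 alone stood apart. Without EPD 1 the log2 fold change of miR-451-5p was 0.02 in place of 1.13. Platelet and myeloid miRNAs (2 listed) summed to 41307 to 59226 CPM in EPD, against 23644 to 44084 CPM in Control. edgeR called none of these markers in the fit of all libraries, and each was counted in all EPD and Control libraries. miR-199a-3p of the vessel wall list, the nearest in profile to miR-351-5p, had the smallest adjusted p of that fit (0.179, log2 fold change -1.71). DESeq2 called it, and so did edgeR without Control 2 (adjusted p = 0.0483) and where each of the 9 libraries had to hold a count (adjusted p = 0.0268). In LPD the defining markers miR-451-5p of red cells, miR-122-5p of hepatocytes and miR-1-3p of muscle were counted in all 3 libraries, while miR-802-5p and miR-133b-3p were at 0 in each. Of the Dlk1-Dio3 list 32 of 38 were in the table and 10 were tested, all with a log2 fold change below 0 (median -1.24, 0 called). Their part in the values of the cluster was not tested. The H19 products miR-675-5p and miR-675-3p, from another imprinted locus of growth control, were too sparse to test.

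In LPD serum the members split into those that were detected and those that were not. miR-322-5p had 260, 142 and 47 counts in LPD 1, 2 and 3 (861, 638 and 310 CPM), against 930, 740 and 1221 CPM in Control. miR-351-5p had 79, 28 and 8 counts (262, 126 and 52.7 CPM), against 960, 366 and 757 CPM in Control. Both were thus counted in all 3 LPD libraries. The 28 counts of miR-351-5p in LPD 2 and its 8 counts in LPD 3 are fewer than the counts per estimated molecule there (49.1 and 12.3). Its 79 counts in LPD 1, at 36.7 counts per estimated molecule, also rest on few molecules. Its level is therefore poorly determined in all LPD libraries. miR-322-5p rests on few molecules as well: on the same estimate, 3 molecules are 364, 662 and 244 CPM in LPD 1, 2 and 3. No comparison with Control is drawn from the LPD level of either member.

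miR-503-5p had 36 counts in LPD 2, also below the counts per estimated molecule, and none in LPD 1 and LPD 3. miR-503-3p had 1 count, in LPD 2 as well, and none in the others. miR-322-3p had none in any LPD library. If LPD sera had the mean profile of the other 6 libraries, a molecule would stand for 12.3 to 49.1 counts there. On that estimate the limit that a 0 sets is given in molecules: 3 are 364, 662 and 244 CPM in LPD 1, 2 and 3. The rate was not fixed, since 3, 9 and 39 miRNAs had only 1 to 9 counts in these libraries, so the limits are rough.

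Absence in LPD was common among miRNAs of low level. Of 355 miRNAs with counts in all 6 EPD and Control libraries, 123 had none in LPD (34.6%), and miR-322-3p was 1 of them. Between 100 and 300 CPM in mean over these 6 libraries, where miR-322-3p, miR-503-3p and miR-503-5p lie, 3 of 51 (5.88%) had no count in any LPD library, the others being miR-324-5p and miR-802-5p. Between 30 and 100 CPM, where the EPD mean of miR-322-3p alone would put it, 22 of 60 had none (36.7%). At that EPD mean, the scaled depth of LPD would give 11.01, 8.11 and 5.53 counts of miR-322-3p in LPD 1, 2 and 3, and at the Control mean 60.6, 44.6 and 30.5 counts. With the mean profile of the 6 libraries, the estimated molecules behind the 3 LPD libraries would have held 2.91 molecules of miR-322-3p in all, 2.90 of miR-503-3p and 4.94 of miR-503-5p, but 11.2 of miR-351-5p and 21.2 of miR-322-5p. No fold change is given for members without counts in LPD. The rough limit of 3 estimated molecules lies above the EPD and Control means of both 3p strands in every LPD library.

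**Figure D5:**
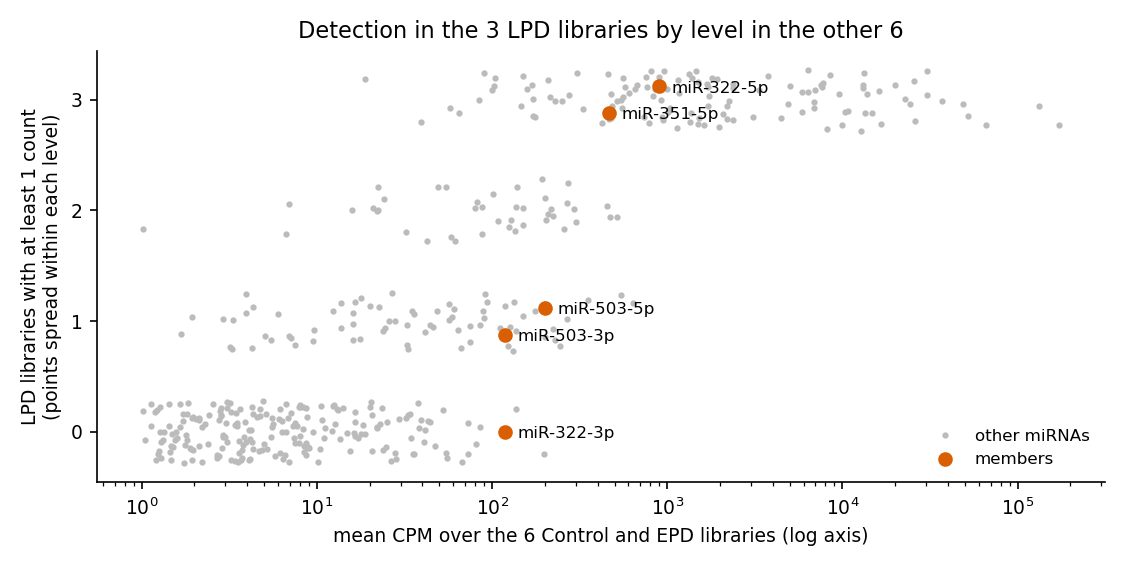
Number of LPD libraries with at least 1 count (points spread within each level) by mean CPM over the 6 EPD and Control libraries (log axis), for miRNAs with a mean of at least 1 CPM. miR-322-5p and miR-351-5p sit among the miRNAs seen in all 3 LPD libraries, the miR-503 strands were seen in 1, and miR-322-3p, at 119 CPM, is among the highest of those seen in none.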

How the data were processed

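Small RNA from rat serum was sequenced, with libraries made by the QIAseq miRNA kit per the labels' protocols. The authors deposited raw read counts for each mature miRNA. The authors' aligner, counter, annotation and any collapsing of molecular identifiers are not stated by any source used here. The single-library tables and the series matrix differed in 0 values. Groups come from the titles.

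miRNAs were kept with edgeR 4.0.16 filterByExpr (minimum count 10, minimum total 15). This left 294, all 5 members included. Counts were scaled by TMM, all 9 libraries were fitted with the robust quasi-likelihood model, and p-values were Benjamini-Hochberg adjusted over all miRNAs tested (threshold 0.05). The fit was also run on simulated counts, with the same spread for every miRNA and with LPD at the mean profile of the other groups. That run does not cover the uneven spread of these libraries. Ratios and distances used a prior of 0.5 counts. With no statement on separate animals, p-values measure only the spread between these libraries. Intervals and floors cover counting error only.

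Besides the members, named miRNAs were cluster neighbours, seed relatives, tissue markers and the 3 nearest in profile to each member. Members and lists were chosen with earlier results of these data known, and the lists come from general knowledge. Alternatives were DESeq2 1.42.0, other scalings and filters, fewer groups, the replicate number as a block and each library left out. Sequences are from RefSeq (GRCr8), where 18 of 19 members, cluster neighbours and seed relatives were matched by name, all but miR-15a-5p.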

Additional observations from a re-analysis of the deposited data

How the results depend on the processing

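The log2 fold changes of miR-351-5p, miR-322-3p, miR-503-3p and miR-503-5p in EPD against Control stayed below 0, and none of the 5 members' moved by more than the SD between libraries of a group, in every alternative run in which they could be fitted. miR-322-3p, miR-503-3p and miR-503-5p could not be fitted where a count in each of the 9 libraries was required. The value of miR-322-5p crossed 0 without Control 3 or EPD 1, with the rest between -0.36 and -0.08. In the fit with a replicate block the values were -2.35 for miR-322-3p, -1.46 for miR-351-5p and -1.84 for miR-503-5p, and 0 miRNAs were called. The deviations of same-numbered EPD and Control libraries from their group means had correlations of -0.11, 0.04 and -0.04. Those of differently numbered libraries ran from -0.07 to 0.12. With 3 libraries per group, these values cannot decide whether same-numbered libraries are paired. The differences in the ratios and the sum of the members kept their sign in every alternative run on them.

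The number of miRNAs called in EPD against Control was 0 in the fit reported. It was 1 with DESeq2, 1 where each of the 9 libraries had to hold a count, and 0 to 1 with a library left out (1 without Control 2), miR-199a-3p each time. It was 21 when Control 2 was left out of a fit of EPD and Control alone, an alternative chosen after the data were seen. The cause was not tested. miRNAs counted in all EPD and Control libraries but not in LPD numbered 123, and 39 when at least 10 counts were asked of each EPD and Control library, which admits fewer miRNAs. Depth limits what can be said of LPD, where members with few molecules may be missed.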
